A study of Homo sapiens with 20 samples.

Results

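The experiment described here set MCF 10A cells transfected with a mimic of human miR-1-3p against MCF 10A cells transfected with a non-targeting control. MCF 10A cells are breast epithelial cells that divide without limit but form no tumours. The samples were chosen by their titles, which name the miRNA and the replicate, and came to 4 mimic and 4 control arrays, 8 of the 20 arrays of the study. The other 12 arrays hold an experiment of the same kind, in the same line, with a mimic of miR-4728-3p and its own control. Labels of all 8 samples give a dose of 100 nM, and both groups were transfected with a cationic lipid, so the controls also carry the effect of transfection. RNA was hybridized to Illumina HumanHT-12 bead arrays of 47323 probes, and the methods call the arrays of a group biological replicates. As a model the experiment is 1 cell line, 1 dose and 1 harvest, with an amount of miRNA that was supplied and not made by the cells. All genes measured on these arrays are described.

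miR-1 is made in heart and skeletal muscle, where it is one of the most abundant miRNAs and promotes differentiation. Breast epithelial lines normally lack it. A mature miRNA sits in an Argonaute protein and pairs through its seed, bases 2 to 8 from its 5′ end, with short matches in the 3′ untranslated region of messenger RNAs, which are then destabilized and translated less. A mimic is a synthetic double strand that is loaded like the natural miRNA, and transcripts that fall after its transfection include direct targets and genes that change as a consequence.

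The mature sequences show which bases the transfected molecule uses, with the seed in capitals. Sequences and positions are from RefSeq, build GRCh38.p14. miR-1-3p is encoded at chr20:62554351-62554372 on the plus strand and, in a second copy with the same mature sequence, at chr18:21829015-21829036 on the minus strand. Of 2370 mature human miRNAs in the table used, 3 share its seed, GGAAUGU, whose match in a target reads ACAUUCC. These are miR-1-3p, its muscle relative miR-206, which differs from it at 4 of 22 positions, all outside the seed, and miR-613. The seed of miR-4728-3p, the mimic of the other experiment, is unlike it.
hsa-miR-1-3p: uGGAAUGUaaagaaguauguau
hsa-miR-206: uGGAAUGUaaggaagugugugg
hsa-miR-613: aGGAAUGUuccuucuuugcc
hsa-miR-4728-3p: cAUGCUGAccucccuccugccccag

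Intensities before normalization had medians of 107 to 121 over the mimic arrays and of 92 to 114 over the control arrays, and the lowest was control array 4. Values below are log2 intensities after background correction and quantile normalization over the 8 arrays. A fold change is the mimic mean minus the control mean on that scale, with its standard error. The filter kept 22030 probes, which stand for 11898 genes, each by its brightest probe. Markers of basal breast epithelium were bright: KRT5, a basal keratin, averaged 11.77 in the mimic and 11.64 in the control arrays, and all 10 of the 10 measured markers of the line passed the filter. ESR1 and PGR, the hormone receptors MCF 10A lacks, and CDKN2A and CDKN2B, which it has lost, did not pass it. Of the blood and endothelial markers 5 of 13 passed it, and the summed level of that list was 1783 to 2018 in the mimic and 1747 to 1939 in the control arrays. PTPRC, CDH5 and VWF, which define leukocytes and endothelium, were at the background in both groups. Markers of monocytes and macrophages were not: CD14 averaged 9.41 in the mimic and 9.42 in the control arrays, CD68 8.46 and 8.18, LYZ 7.33 and 7.09, and CSF1R 7.11 and 6.76, in the same order of groups. The endothelial marker PECAM1 also passed the filter, at 6.27 in the mimic and 6.54 in the control arrays. Of 10 fibroblast and smooth muscle markers 2 passed it, ACTA2 (8.05 and 8.35) and DCN (6.52 and 6.53).

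The mimic lowered 147 genes and raised 173 at an adjusted p under 0.05, which is 1.24% and 1.45% of the genes tested, or 2.69% in either direction. At an unadjusted p under 0.05, 8.35% of genes were lower and 7.20% higher. These shares are the background of the counts given for gene groups below. The changes were small. Over all genes the median log2 fold change was -0.01 and 51.8% of genes lay below 0, and the called genes changed by a median of 1.35-fold downwards and 1.39-fold upwards. Past 0.5 on the log2 scale lay 41 of the lowered and 68 of the raised genes, and past 1 lay none of the lowered and 6 of the raised genes. The 4 mimic and 4 control arrays did not overlap in 682 genes with lower and 597 genes with higher mimic values, 5.73% and 5.02% of those tested, and among the 320 called genes they overlapped in MTHFD2 alone. With median scaling in place of quantile normalization, the calls were 20 lower and 76 higher, so that the share of calls that were lower was 20.8%, against 45.9% in the analysis given here.

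**Figure D1:**
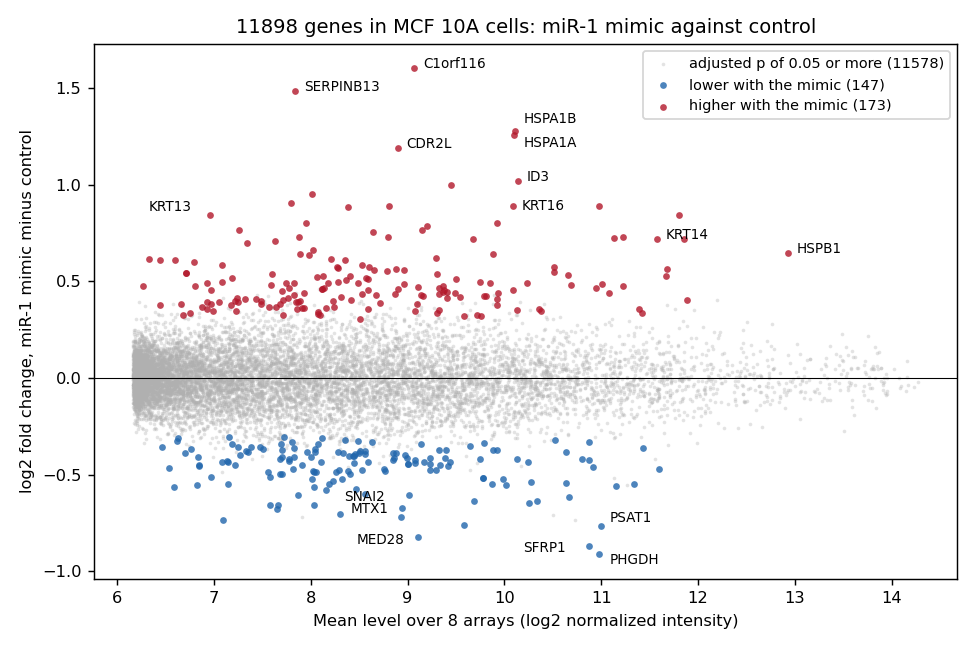
Each point is 1 of 11898 genes. The horizontal axis is its mean level over the 8 arrays (log2 normalized intensity) and the vertical axis its log2 fold change, miR-1 mimic minus control. The 147 lowered genes (blue) reach -0.91 at PHGDH and the 173 raised genes (red) reach 1.60 at C1orf116.

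Reported targets of miR-1 lay mostly below 0. Of 104 genes that the literature gives as targets of miR-1, 81 were tested, and the mimic lowered 12 of them: MTX1, MMD, SNAI2, SLC44A1, NELFCD, SERP1, FNDC3A, LASP1, NETO2, TAGLN2, ATP6V1A and H3-3B. That is 12 of 81 against a background of 1.24% lowered over all genes. At an unadjusted p under 0.05, 35 were lower, where the background is 8.35%. In all, 66 of the 81 had a fold change below 0, with a median of -0.14 against -0.01 for all genes. One target rose, SOX9, a transcription factor of progenitor cells, by 0.39 ± 0.08 (adjusted p = 0.0255). In the other experiment the miR-4728-3p mimic lowered 4 and raised 4 of 83 tested genes of this list, with a median of -0.05, where 3.82% and 3.95% of all genes were called. The difference between the experiments was not tested.

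**Figure D2:**
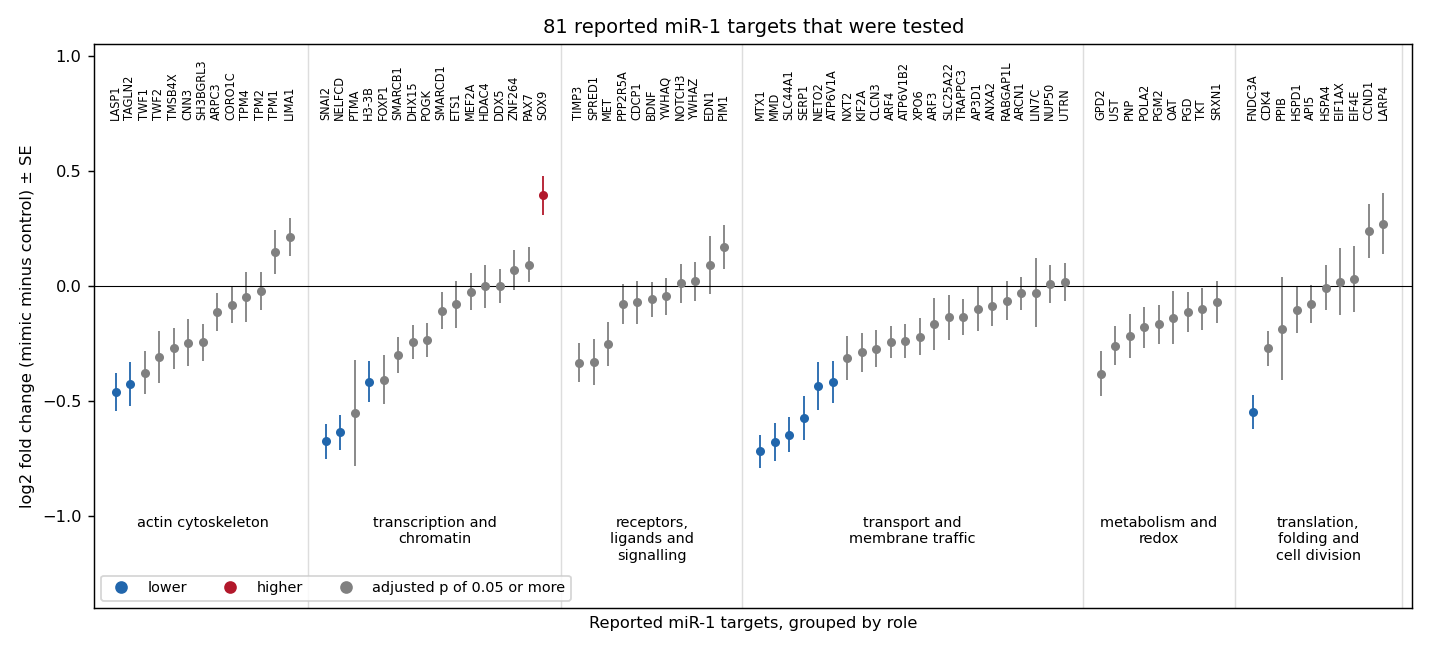
Log2 fold change of each of the 81 tested targets, miR-1 mimic minus control, with its standard error, grouped by role along the horizontal axis. Blue points passed the test as lower (12 genes), the red point as higher (SOX9), and 66 of 81 points lie below 0.

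By role, proteins of transport and membrane traffic held the most lowered targets, 6 of 22 tested, with 20 of the 22 below 0. MTX1, metaxin 1 of the mitochondrial import machinery, stood at 8.63, 8.61, 8.55 and 8.51 in the mimic arrays, against 9.25, 9.28, 9.36 and 9.28 in the control arrays. The groups were far apart and each was tight, with a fold change of -0.72 ± 0.07 (adjusted p = 0.000114). A second, dimmer probe of MTX1 also passed the test at -0.59. MMD, a membrane protein first found in maturing macrophages, stood at 7.29, 7.18, 7.34 and 7.42 in the mimic arrays, against 7.90, 8.10, 8.04 and 7.92 in the control arrays, a change of -0.68 ± 0.08 (adjusted p = 0.000459). SLC44A1, a choline transporter, changed by -0.65 ± 0.08 (adjusted p = 0.000459), and its second probe by -0.34, which missed the threshold. SERP1, a protein of the endoplasmic reticulum membrane, changed by -0.57 ± 0.10. ATP6V1A, the catalytic subunit of the proton pump of lysosomes, changed by -0.42 ± 0.09 (adjusted p = 0.0271), and NETO2, a membrane protein that associates with kainate receptors in neurons, by -0.44 ± 0.10. In the wider list of 28 proton pump and lysosome genes ATP6V1A was the only one called.

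Among targets in transcription and chromatin the mimic lowered 3 of 16. SNAI2, or Slug, a repressor of epithelial genes, stood at 8.56, 8.63, 8.59 and 8.65 in the mimic arrays, against 9.33, 9.17, 9.40 and 9.22 in the control arrays. The mimic arrays agreed within 0.1 and lay below every control array, at -0.67 ± 0.08 (adjusted p = 0.000319), and a second probe of SNAI2 was called at -0.48. NELFCD, a subunit of the complex that pauses RNA polymerase, changed by -0.64 ± 0.08 (adjusted p = 0.000536), and H3-3B, which encodes histone H3.3, by -0.42 ± 0.09 (adjusted p = 0.026). Of the actin-binding targets 2 of 13 came down. LASP1, which links actin to focal adhesions, changed by -0.46 ± 0.08 (adjusted p = 0.00969), and TAGLN2, transgelin 2, by -0.43 ± 0.09 (adjusted p = 0.0312). TWF1, the actin monomer binder twinfilin 1 and a much-used reporter of miR-1, had a fold change of -0.38 ± 0.09. Its adjusted p was 0.0569, just past the threshold. Its mimic and control arrays did not overlap, and neither did those of 5.73% of all genes, in the same direction. A second probe of TWF1 had -0.25 and was not called (adjusted p = 0.313). In the wider list of 44 actin genes LASP1 and TAGLN2 were the only ones called, and the median was 0.03. TAGLN, transgelin, lay the other way at 0.39 and was not called, but a second, dimmer probe passed the test at 0.51 (adjusted p = 0.0165).

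None of the 11 receptors, ligands and signalling proteins and none of the 9 metabolic enzymes among the targets was called, although all 9 enzymes lay below 0, between -0.38 and -0.07. At an unadjusted p under 0.05 these groups held 3 genes each, all lower, where 8.35% of all genes were lower. Of the 10 proteins of translation, folding and cell division FNDC3A, a fibronectin domain protein, was lowered by -0.55 ± 0.08 (adjusted p = 0.00156), and its second probe by -0.59.

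The calls of MTX1, MMD, SLC44A1, SERP1, SNAI2, NELFCD, LASP1 and FNDC3A stood in each of the 8 fits that left out 1 array. Other calls rested on more of the arrays. That of ATP6V1A was lost without mimic array 1 or 2 or control array 2, 3 or 4 (adjusted p up to 0.0891), that of NETO2 in every fit but those without mimic array 4 or control array 3 (up to 0.152), that of TAGLN2 in every fit but that without mimic array 1 (up to 0.103), and that of H3-3B in every fit but those without mimic array 1 or 4 (up to 0.0851). SOX9 kept its call only without mimic array 2 or control array 3 (up to 0.0879). Without 1 array the number of lowered targets was 8 to 12, and with median scaling it was 6.

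**Figure D3:**
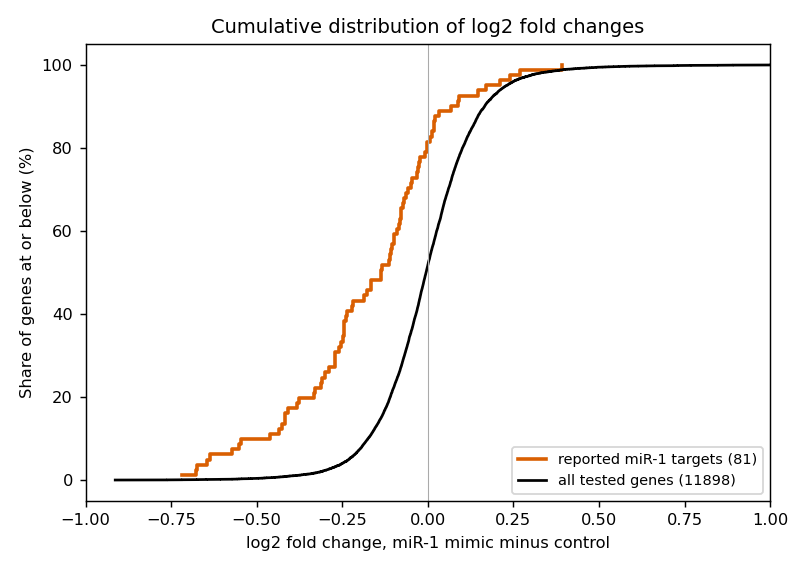
Share of genes (vertical axis, %) at or below each log2 fold change (horizontal axis, miR-1 mimic minus control) for the 81 tested targets of miR-1 and for all 11898 tested genes. The curve of the targets lies to the left, with medians of -0.14 and -0.01.

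Most of the measured keratins, the filament proteins of epithelia, rose. The mimic raised 8 of 12 tested keratins and lowered none, against a background of 1.45% raised, and their median fold change was 0.56. KRT16, a keratin of activated and wounded epidermis, stood at 10.42, 10.52, 10.58 and 10.61 in the mimic arrays, against 9.66, 9.74, 9.56 and 9.60 in the control arrays, a change of 0.89 ± 0.08 (adjusted p = 3.26e-05). KRT14, which pairs with KRT5 in basal cells and is among the brightest transcripts here, stood at 11.97, 11.86, 11.91 and 11.99 in the mimic arrays, against 11.22, 11.15, 11.35 and 11.12 in the control arrays. The gap was wider than the spread of either group, at 0.72 ± 0.08 (adjusted p = 0.000213). KRT6C, a further wound keratin whose probe may also bind its near-identical relatives, rose by 0.85 ± 0.09, and KRT13, a keratin of internal squamous epithelia, by 0.84 ± 0.13. KRT15 rose by 0.64 ± 0.12, KRT80 by 0.59 ± 0.10, and the keratins of simple epithelium KRT8 and KRT7 by 0.53 ± 0.12 and 0.47 ± 0.10. The basal keratin KRT5 had a fold change of 0.13 ± 0.10 and the simple keratin KRT18, the partner of KRT8, one of -0.14 ± 0.10, and neither was called. In RNA of a whole culture, more cells of a type and more RNA per cell cannot be told apart.

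The summed level of all keratins on the list was 18426 to 20265 in the mimic arrays, against 13278 to 13642 in the control arrays. The calls of KRT16, KRT14, KRT6C, KRT13 and KRT80 stood in all 8 fits that left out 1 array. KRT15 lost its call without mimic array 3 or control array 2 (adjusted p up to 0.0583), KRT7 without mimic array 1 or 3 or control array 1, 2 or 4 (up to 0.0808), and KRT8 in every fit but those without mimic array 4 or control array 1 (up to 0.0821). The miR-4728-3p mimic raised 1 and lowered 1 of 13 tested keratins.

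Genes of squamous differentiation moved the same way. Squamous cells build a cornified envelope of cross-linked proteins under the control of a small set of regulators. The mimic raised 8 of 38 tested genes of this list and lowered none, and 34 of the 38 lay above 0, with a median of 0.18. Over all genes 1.45% were raised and 51.8% lay below 0. SERPINB13, a protease inhibitor of squamous epithelium, stood at 8.57, 8.64, 8.53 and 8.59 in the mimic arrays, against 7.20, 7.13, 7.14 and 6.92 in the control arrays. It rose 2.80-fold, by 1.48 ± 0.08 (adjusted p = 5.33e-07). C1orf116, an androgen-responsive gene, had the largest change of all genes tested, at 10.03, 9.73, 9.84 and 9.88 in the mimic arrays, against 8.43, 8.38, 8.09 and 8.17 in the control arrays. It rose 3.04-fold, by 1.60 ± 0.10 (adjusted p = 7.25e-07), and a second probe by 1.42, while the dimmest, near the background, had 0.36 and was not called. With the miR-4728-3p mimic C1orf116 also rose, by 0.70 ± 0.11 (adjusted p = 0.000156). TGM1, the transglutaminase that cross-links the envelope, stood at 9.37, 9.32, 9.26 and 9.05 in the mimic arrays, against 8.47, 8.46, 8.23 and 8.28 in the control arrays, a change of 0.89 ± 0.09 (adjusted p = 0.000146). The envelope protein periplakin, PPL, rose by 0.54 ± 0.10 and the serpin SERPINB7 by 0.49 ± 0.09.

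Of the 11 tested genes grouped as regulators of this program 4 rose. C1orf116 and HES2, both among the 12 largest increases, are counted among them and among the 38 genes of the list. That list was chosen with earlier results of these data known, so their own changes lend these counts no support. Besides C1orf116, the raised regulators were HES2, a repressor of the Hairy family, by 0.96 ± 0.10, and the transcription factors ZNF750, by 0.54 ± 0.10, and GRHL3, by 0.56 ± 0.11, both drivers of late epidermal differentiation. HES2 was also called by its second probe, at 0.56. Among the junction genes DSC2, a desmosomal cadherin, rose by 0.47 ± 0.08, and CLDN1, a tight junction protein, by 0.48 ± 0.11. These were 2 of 15 tested, where 1.45% of all genes were raised. JUP, plakoglobin of the desmosome, had 0.39 ± 0.10 with an adjusted p of 0.0562, and its dimmer probes, at 0.10 and 0.15, were not called. The call of GRHL3 was lost without mimic array 2 or 3 or control array 3 or 4 (adjusted p up to 0.077) and that of CLDN1 in every fit but those without mimic array 1 or control array 3 (up to 0.107), whereas the calls of SERPINB13, C1orf116, TGM1, PPL, SERPINB7, HES2, ZNF750 and DSC2 stood without any 1 array. With arrays of the same number taken as a block, ZNF750 missed the threshold (adjusted p = 0.0545). Transfection of miR-4728-3p raised 2 and lowered none of 39 tested squamous genes.

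**Figure D4:**
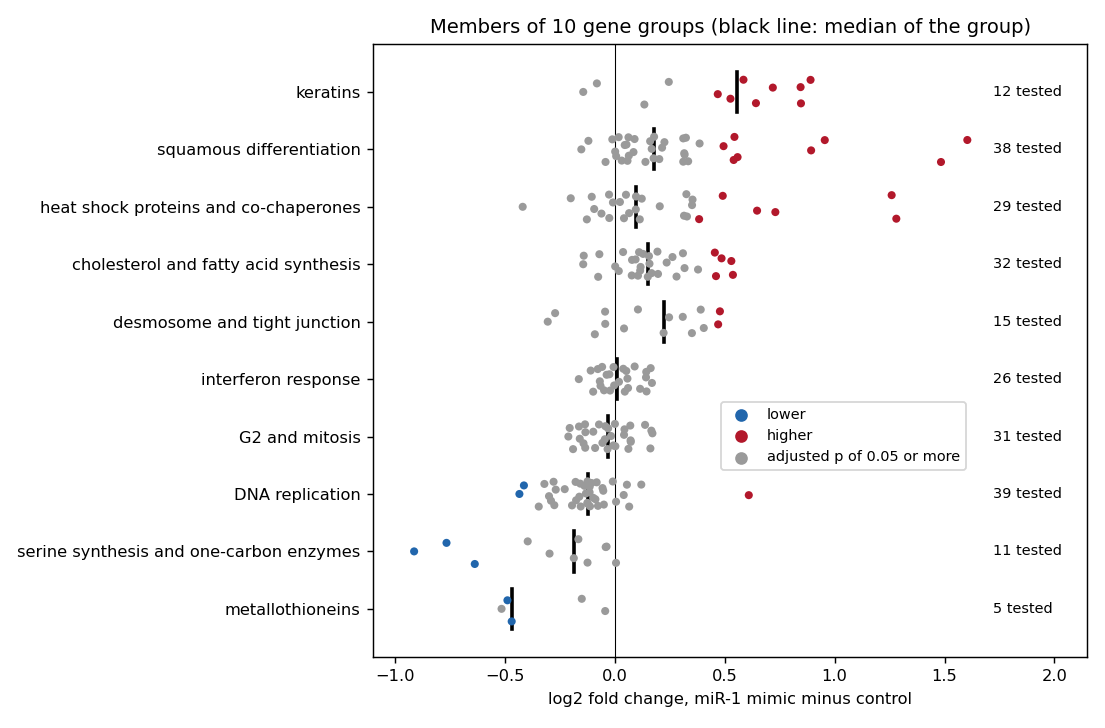
Log2 fold change (horizontal axis, miR-1 mimic minus control) of the tested members of 10 gene groups, 1 point a gene, with the group's median as a black line. Raised members (red) stand out among keratins, 8 of 12, and lowered members (blue) among the enzymes of serine synthesis and one-carbon metabolism, 3 of 11, while the interferon genes lie close to 0. Of all tested genes 1.45% were raised and 1.24% lowered.

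Genes that tell epithelial from mesenchymal cells changed in both directions, with 2 lowered and 2 raised of 23 tested. The shares over all genes were 1.24% and 1.45%. CDH1, or E-cadherin, a gene that SNAI2 represses, stood at 10.16, 9.95, 10.11 and 10.17 in the mimic arrays, against 9.55, 9.67, 9.69 and 9.51 in the control arrays. The groups did not overlap and differed by 0.49 ± 0.08 (adjusted p = 0.00481), and all 6 tested epithelial junction genes of this list lay above 0. SNAI2 was the lowered factor. AXL, a receptor kinase of mesenchymal-like cells, fell by 0.44 on the log2 scale (SE 0.10), and its second probe was called at -0.55. THBS1, thrombospondin 1, rose by 0.52 ± 0.11, also one of the mesenchymal products of the list. VIM, the mesenchymal filament vimentin, had -0.26 ± 0.08 and an adjusted p of 0.153. AXL kept its call only without mimic array 1 or 4 (adjusted p up to 0.119), and THBS1 lost its call without mimic array 4 or control array 1, 3 or 4 (up to 0.108). With median scaling CDH1 missed the threshold (adjusted p = 0.0602).

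Of the genes of luminal breast epithelium the mimic raised 3 of 13, against 1.45% of all genes. CD24, a surface protein of luminal cells, rose by 0.72 ± 0.10 (adjusted p = 0.0012), and by 0.74 on a second probe. MUC1, a mucin of the luminal surface, rose by 0.55 ± 0.09 (adjusted p = 0.00499), and FOXA1, the factor that opens chromatin for steroid receptors, by 0.46 ± 0.10 (adjusted p = 0.0197). The call of FOXA1 was lost without mimic array 1 or 4 or control array 1 or 4 (up to 0.0852). None of the 17 tested integrin and basement membrane genes was called, and 3 had an unadjusted p under 0.05. At that level 8.35% of all genes were lower and 7.20% higher, so this count is near the background. ITGA10, an integrin subunit that was not on that list, fell by 0.74 on the log2 scale (SE 0.09) at 6.73 ± 0.13 in the mimic and 7.47 ± 0.09 in the control arrays (SD, n = 4 each).

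Heat shock genes rose in part. The mimic raised 6 of 29 tested heat shock proteins and co-chaperones, against 1.45% of all genes, and lowered none. Their median fold change was 0.10. HSPA1A, an inducible HSP70, stood at 10.92, 10.23, 10.59 and 11.19 in the mimic arrays, against 9.68, 9.89, 9.18 and 9.14 in the control arrays. Its spread was wide in both groups, mimic array 2 was the lowest of its group and control array 2 the highest of its own, and the change was 1.26 ± 0.19 (adjusted p = 0.00341). HSPA1B, whose sequence is nearly the same, so that the probes may not tell these genes apart, again had mimic array 2 lowest and control array 2 highest in their groups, with 11.03, 10.17, 10.84 and 10.97 in the mimic and 9.34, 9.95, 9.34 and 9.25 in the control arrays. HSPB1, the small heat shock protein HSP27, was tighter, at 13.20, 13.19, 13.29 and 13.32 in the mimic arrays, against 12.54, 12.60, 12.55 and 12.72 in the control arrays, a change of 0.65 ± 0.08 (adjusted p = 0.000396).

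The co-chaperones of HSP70 DNAJB1 and DNAJB4 rose by 0.73 ± 0.10 and 0.49 ± 0.08, and the small heat shock protein HSPB8 by 0.38 ± 0.08. BAG3 and HSPA4L came close, with 0.35 ± 0.09 and 0.31 ± 0.08 at adjusted p-values of 0.0533 and 0.0507. Members that act in every cell, the HSP90, HSP60 and constitutive HSP70 genes, were not called. HSPB8 lost its call without mimic array 4 or control array 2, 3 or 4 (adjusted p up to 0.0733), HSPA1A lost it with a trended robust eBayes (adjusted p = 0.0762), and the calls of HSPA1B, HSPB1, DNAJB1 and DNAJB4 stood without any 1 array. In the other experiment 2 of 31 tested genes of this list rose.

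Enzymes of sterol synthesis lay above 0 as a group. The pathway turns acetyl-CoA into cholesterol through mevalonate. All 17 tested sterol enzymes had a fold change above 0, with a median of 0.24, and 4 of them were called: SC5D, by 0.54 ± 0.10, HMGCS1, which makes the precursor of mevalonate, by 0.49 ± 0.11, MVD, by 0.46 ± 0.10, and IDI1, by 0.45 ± 0.10. With the regulators and the fatty acid enzymes, 5 of 32 genes of lipid synthesis were raised and none was lowered. Over all genes 1.45% were raised and 51.8% lay below 0. ACLY, which supplies acetyl-CoA to both pathways, averaged 11.94 ± 0.11 in the mimic arrays and 11.41 ± 0.07 in the control arrays (SD, n = 4 each) with no overlap, a change of 0.53 ± 0.08 (adjusted p = 0.00274), and a second probe rose by 0.58. MSMO1 had 0.38 ± 0.09 (adjusted p = 0.0539). The calls of ACLY and SC5D stood without any 1 array. That of IDI1 was lost without mimic array 1, 3 or 4 or control array 3 or 4 (adjusted p up to 0.0971), that of HMGCS1 in every fit but those without mimic array 2 or control array 2 (up to 0.129), and that of MVD in every fit but those without mimic array 4 or control array 2 (up to 0.12). With median scaling 1 of the 5 was called. The miR-4728-3p mimic raised 1 of 32 genes of this list, with a median of -0.14.

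Serine synthesis held the largest decrease of the experiment. Cells make serine from a glycolytic intermediate by the enzymes PHGDH, PSAT1 and PSPH, and mitochondrial MTHFD2 uses the carbon unit that serine gives. PHGDH stood at 10.56, 10.94, 10.65 and 9.93 in the mimic arrays, against 11.40, 11.17, 11.49 and 11.67 in the control arrays. No mimic array reached a control array, mimic array 4 was the lowest, and the change was -0.91 ± 0.17 (adjusted p = 0.0107). PSAT1 stood at 10.53, 10.96, 10.69 and 10.27 in the mimic arrays, against 11.21, 11.19, 11.52 and 11.60 in the control arrays, in the same order of mimic arrays, a change of -0.77 ± 0.13 (adjusted p = 0.00791). MTHFD2 stood at 9.88, 10.46, 10.04 and 9.72 in the mimic arrays, against 10.60, 10.39, 10.74 and 10.90 in the control arrays. Mimic array 2 thus lay above control array 2, and the change was -0.64 ± 0.14 (adjusted p = 0.0331). PSPH had -0.40 ± 0.18 and was not called. In all 3 of 11 tested genes of this list were lowered, against 1.24% of all genes, and none was raised.

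ASNS and TRIB3, which like the serine enzymes are targets of the stress factor ATF4, had -0.71 ± 0.18 and -0.73 ± 0.20 with adjusted p-values of 0.0569 and 0.0827, and none of 18 ATF4 and stress genes was called, although 5 were lower at an unadjusted p under 0.05. A second probe of ASNS had -0.57 (adjusted p = 0.157). None of 18 aminoacyl-tRNA synthetases and none of 10 amino acid transporters was called, with 4 and 3 lower at an unadjusted p under 0.05. At that level 8.35% of all genes were lower. CBS, which starts the transsulfuration of homocysteine with serine, fell by 0.57 on the log2 scale (SE 0.10), and its level, 6.31 ± 0.15 in the mimic and 6.88 ± 0.15 in the control arrays, was near the background. PHGDH lost its call without control array 4 (adjusted p = 0.0569) and with a trended robust eBayes (adjusted p = 0.093). MTHFD2 lost its call in every fit but those without mimic array 2 or control array 2 (up to 0.14). It also lost it with array weights (0.0546), the trended robust eBayes (0.0857) and median scaling (0.16). PSAT1 kept its call without any 1 array. With arrays of the same number taken as a block, PHGDH, MTHFD2, PSAT1 (adjusted p = 0.0529) and CBS (0.0543) all lost their calls. The miR-4728-3p mimic lowered 1 of 10 tested genes of serine and one-carbon metabolism. Of the 7 tested pentose phosphate genes none was called and 6 lay below 0.

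**Figure D5:**
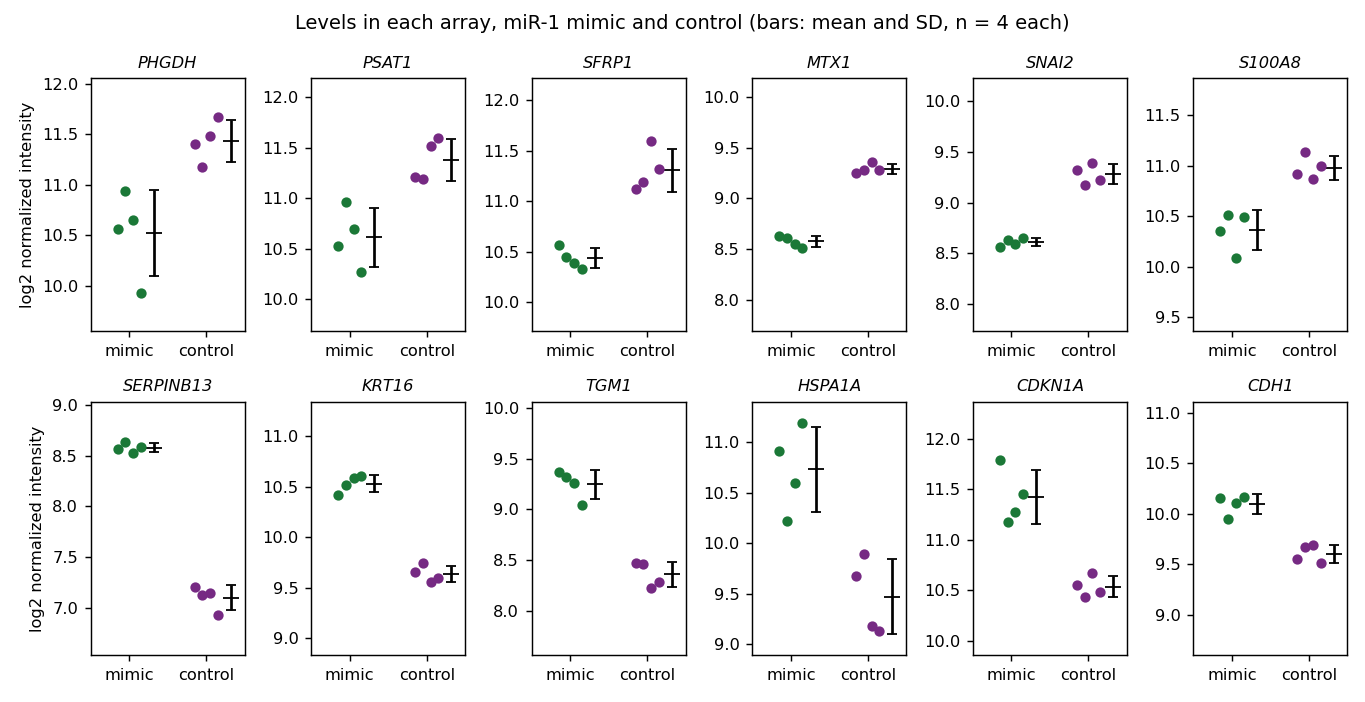
Level of 12 genes in each array (vertical axes, log2 normalized intensity, all spanning the same range), with the 4 miR-1 mimic arrays left and the 4 control arrays right in each panel and the mean with its SD beside the points. The 12 genes were picked from the called genes, among which MTHFD2 alone overlaps, so none of them overlaps by this choice. Among all tested genes 10.7% do not overlap. HSPA1A and PHGDH have the widest spread.

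SFRP1, a secreted antagonist of Wnt ligands, had the second largest decrease, at 10.57, 10.45, 10.39 and 10.33 in the mimic arrays, against 11.12, 11.18, 11.59 and 11.32 in the control arrays. It changed by -0.87 ± 0.10 (adjusted p = 0.000396). DKK1, an antagonist that binds the Wnt co-receptor, moved the other way, at 10.36, 10.10, 10.38 and 10.44 in the mimic arrays, against 9.69, 9.75, 9.35 and 9.30 in the control arrays, a change of 0.80 ± 0.11 (adjusted p = 0.00171). A second, dimmer probe of DKK1 had 0.47 and missed the threshold. FZD2, a Wnt receptor, was called at -0.34 ± 0.08 (adjusted p = 0.0464) but in none of the 8 fits that left out 1 array (up to 0.159), whereas SFRP1 and DKK1 were called in all of them. These were the only 3 of 20 Wnt genes called, against 2.69% of all genes, and the median of the list was -0.01.

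The calcium-binding S100 proteins split, with 2 lowered and 2 raised of 13 tested, against 1.24% and 1.45% of all genes. S100A8 and S100A9 form calprotectin, a dimer released by stressed epithelium and by myeloid cells. S100A8 stood at 10.35, 10.51, 10.09 and 10.49 in the mimic arrays, against 10.91, 11.13, 10.87 and 10.99 in the control arrays, a change of -0.62 ± 0.10 (adjusted p = 0.00481). S100A9 stood at 10.84, 11.02, 10.62 and 11.01 in the mimic arrays, against 11.36, 11.51, 11.25 and 11.62 in the control arrays, a change of -0.56 ± 0.10 (adjusted p = 0.0116). In both genes mimic array 3 and control array 3 were the lowest of their groups. S100A14 rose by 0.53 ± 0.12 and S100P by 0.45 ± 0.10. S100A9 lost its call without control array 4 (adjusted p = 0.0557), S100A14 in every fit but those without mimic array 2 or 3 (up to 0.102), and S100P in every fit but those without mimic array 1 or control array 2 (up to 0.0943). With median scaling neither of the lowered genes was called (adjusted p = 0.0931 for S100A8 and 0.0991 for S100A9). Among markers of myeloid cells CSF1R was higher in the mimic arrays, by 0.36 ± 0.08, and that call was lost without mimic array 1, 3 or 4 or control array 1 or 3 (up to 0.0969). The part of other cell types in these results was not tested.

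Metallothioneins, small proteins that bind zinc and copper, lay below 0 in all 5 tested genes, with a median of -0.47. MT1F fell by 0.49 and MT1X by 0.47 on the log2 scale (SE 0.08 each), and both calls stood without any 1 array but not with median scaling. MT1G had -0.52 ± 0.15 and was not called. Metallothionein genes are near copies of each other and their probes may share signal. TXNRD1, thioredoxin reductase, rose by 0.64 ± 0.09 (adjusted p = 0.00208), and AKR1B10, an aldo-keto reductase, by 0.32 ± 0.08 (adjusted p = 0.0439), the only 2 of 12 genes of the oxidative stress factor NRF2 that were called. AKR1B10 kept its call only without mimic array 4 (up to 0.15).

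CDKN1A, the p53 target that encodes the cyclin-dependent kinase inhibitor p21, rose as the only one of 22 tested G1 genes and inhibitors. It stood at 11.79, 11.18, 11.28 and 11.45 in the mimic arrays, against 10.55, 10.43, 10.67 and 10.49 in the control arrays, 1.85-fold higher (adjusted p = 0.0011), and its call stood without any 1 array. Of 39 genes of DNA replication 33 lay below 0, with a median of -0.12, where 51.8% of all genes lay below 0. Only 3 were called and they split. RFC1 and RFC3, subunits of the loader of the replication clamp, fell by 0.41 and 0.43 on the log2 scale (SE 0.08 each), while the further probes, at -0.07 for RFC1 and at -0.07 and -0.18 for RFC3, were not called. RRM2, the small subunit of ribonucleotide reductase, rose by 0.61 ± 0.10 (adjusted p = 0.00619). RFC3 lost its call without control array 1 or 4 (adjusted p up to 0.0614) and RFC1 without mimic array 1 or 3 or control array 1, 3 or 4 (up to 0.073). CDT1, which licenses origins, had -0.30 ± 0.07 and MCM3, of the replicative helicase, -0.35 ± 0.09, with adjusted p-values of 0.0564 and 0.0601. None of 31 genes of G2 and mitosis and none of 12 genes of the BCL2 family was called, with 1 lower in the first list and 1 higher in the second at an unadjusted p under 0.05. At that level 8.35% of all genes were lower and 7.20% higher. CCNA1, a cyclin of the germ line, fell by 0.71 on the log2 scale (SE 0.15), and that call was lost without mimic array 3 or control array 3 or 4 (up to 0.11).

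Genes of signalling changed singly, where 1.24% of all genes were lowered and 1.45% raised. FOS, an immediate early factor, was lowered to 7.44 ± 0.15 in the mimic arrays, against 7.93 ± 0.06 in the control arrays (SD, n = 4 each, adjusted p = 0.00721), and ANKRD1, a target of YAP, was raised by 0.48 ± 0.08, 2 of 16 genes of that list. ANKRD1 was near the background, at 6.51 in the mimic and 6.03 in the control arrays. The filter kept probes averaging above 6.17 over the 8 arrays, so ANKRD1 passed it only through its mimic arrays. DUSP6 and ETV5, which are induced by the kinase ERK, fell by 0.52 (SE 0.11) and 0.44 (SE 0.10) on the log2 scale, 2 of 11. A second probe of DUSP6 was called at -0.43, while that of ETV5 had -0.22 and was not called. DUSP6 lost its call without mimic array 2 or 3 or control array 1, 3 or 4 (adjusted p up to 0.106), and ETV5 kept its call only without control array 2 (up to 0.14). None of 9 ERBB receptor and ligand genes was called, and 2 were lower at an unadjusted p under 0.05, as were 8.35% of all genes. IL1B and IL1A, the cytokines interleukin 1 beta and alpha, rose by 0.50 ± 0.08 and 0.44 ± 0.10, 2 of 19 cytokine and NF-kB genes. IL1A kept its call only without mimic array 4 (up to 0.109). ADM, adrenomedullin, rose by 0.49 ± 0.10 as the only one of 30 glycolysis and hypoxia genes, a call lost without mimic array 3 or control array 3 or 4 (up to 0.0588). ADM also rose with the miR-4728-3p mimic, by 0.75 ± 0.10. TNFRSF12A, the receptor of the cytokine TWEAK, rose, at 9.97, 9.91, 9.86 and 10.06 in the mimic arrays, against 9.02, 9.08, 8.78 and 8.91 in the control arrays, with means of 9.95 and 8.95 (adjusted p = 2.86e-05).

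Some of the largest changes fell outside the lists. MED28, a subunit of the Mediator complex that links transcription factors to RNA polymerase, stood at 8.78, 8.61, 8.61 and 8.79 in the mimic arrays, against 9.50, 9.46, 9.66 and 9.46 in the control arrays. The change was -0.82 ± 0.08 (adjusted p = 0.000106). Of 25 tested Mediator subunits, looked up after this value was seen, MED28, MED24 (-0.61 ± 0.12) and MED30 (-0.35 ± 0.08) were lowered and none was raised. The share lowered over all genes was 1.24%. MED24 lost its call without control array 4 (adjusted p = 0.0791) and MED30 kept its call only without control array 2 (up to 0.122). ACOX2, a peroxisomal oxidase of bile acid intermediates, fell by 0.76 on the log2 scale (SE 0.08), CES1, a carboxylesterase, by 0.66 (SE 0.11), and RAB11FIP2, which guides recycling endosomes, by 0.66 (SE 0.10). CES1 also fell with the miR-4728-3p mimic, at -0.64 ± 0.14. Among raised genes CDR2L changed by 1.19 ± 0.08 (adjusted p = 1.33e-06) and CPA4, a carboxypeptidase, by 0.91 ± 0.11. CPA4 went the other way with the miR-4728-3p mimic, at -0.72 ± 0.12.

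ID3, an inhibitor of basic helix-loop-helix factors, stood at 10.59, 10.56, 10.65 and 10.78 in the mimic arrays, against 9.61, 9.68, 9.61 and 9.61 in the control arrays, and rose 2.03-fold (adjusted p = 7.09e-06). ID2 rose by 0.70 ± 0.11, and ID1 had 0.28 ± 0.10 and was not called. HES4 rose by 0.72 ± 0.08 and HEY1, a target of Notch, fell by 0.55 (SE 0.08), so that with HES2 the tested HES and HEY repressors gave 2 raised and 1 lowered of 6. The ID and the HES and HEY genes were looked up after the values of ID3 and HES2 were seen. All 5 calls stood without any 1 array.

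Of the miRNA pathway itself 1 of 15 genes was called. TNRC6B, a partner of Argonaute that recruits the deadenylases, rose by 0.59 ± 0.08 (adjusted p = 0.00131) on its brighter probe, while its second probe had 0.05 and was not called. None of the 23 mitochondrial ribosome genes was called, with 1 lower at an unadjusted p under 0.05, as were 8.35% of all genes. Most muscle genes stayed low. Of 24 on the list 6 passed the filter and none was called, and the summed level of the list was 1729 to 1761 in the mimic arrays, against 1776 to 1843 in the control arrays. ACTA2, smooth muscle actin, was well above the background, at 8.05 in the mimic and 8.35 in the control arrays. It had -0.30 ± 0.08 (adjusted p = 0.0679), and as the brightest of them it weighs most in these sums.

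No interferon gene passed the test with the miR-1 mimic. Of 26 on the list that were tested, none was called and none had an unadjusted p under 0.05, in a background where 8.35% were lower and 7.20% higher at that level. The fold changes ran between -0.16 and 0.17 with a median of 0.01. With the miR-4728-3p mimic 29 of 29 tested genes of the same list rose, with a median of 3.82. The experiments had their own controls and were measured on different probe sets. The methods name different versions of the array for them, whereas the labels give 1 version for both. They were normalized apart, and the difference between them was not tested. Of genes that the study mentions in connection with other miRNAs, FOXO1, a transcription factor held down by AKT, was lowered by the miR-1 mimic, by 0.37 on the log2 scale (SE 0.08, adjusted p = 0.0229), a call that was kept only without mimic array 1 or control array 3 (up to 0.0798). CAV1, mentioned in the same connection, had 0.29 ± 0.08 (adjusted p = 0.0698) and was not called. A second, dimmer probe of CAV1 passed the test at 0.44 (adjusted p = 0.00619). FOXO3, also mentioned there, had -0.23 ± 0.08 and was not called. USP1, a deubiquitinase, had -0.20 ± 0.10 and was not called, and ESR1 did not pass the filter.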

How the data were processed

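The deposited tables hold raw intensities per probe, and linear intensities that the authors normalized on the BASE server by a method not given in the sources used here. Raw intensities of the 8 arrays were background corrected (normexp, offset 50), quantile normalized and put on the log2 scale (limma 3.58.1, R 4.3.3). Of 47323 probes, those brighter on average than the overall median (22030) were tested by lmFit and eBayes, with no block, and p-values were adjusted after Benjamini and Hochberg. Platform annotation gave 30113 probes 1 gene, 8 several (left unnamed) and 17202 none. The brightest tested probe stood for its gene, and 23 genes not called by it were called by another probe only. Another background offset or none, the authors' normalized values, median scaling, other filters, the mean of a gene's probes, a replicate block, array weights, a trended robust eBayes and leaving out each array were tried. The miR-4728-3p arrays were fitted apart by the same steps.

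Gene lists and the arrays described were chosen with earlier results of these data known. Genes were named by rule: the 12 largest decreases and increases among called genes without overlap, up to 4 members of each list by p, called targets, markers and genes the study names. CBS, the ID, HES, HEY and Mediator genes other than those of the rule, and further called list members were chosen after their values were seen. A search of 3′ untranslated regions for the seed match was not analysed here. The p-values measure the spread between these arrays, and their number limits the precision.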

Additional observations from a re-analysis of the deposited data

Results flagged for a closer look

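In 7 genes named above 1 array of a group stood far from the other 3 by Dixon's test. Chance alone brings this up in about 1 of 20 groups tested. Both groups of every gene named here were tested, 92 called genes among them, so a count of 7 is not above what chance would bring. Control array 2 was apart in 4 of them: it had 9.95 for HSPA1B, where the other control arrays had 9.25 to 9.34, 7.84 for KRT8, where they had 8.23 to 8.27, 9.68 for H3-3B, where they had 9.56 to 9.58, and 9.68 for ID3, where they had 9.61. Control array 4 had 10.42 for MUC1, and the other control arrays had 10.15 to 10.19. Control array 3 had 7.06 for SOX9, and the others had 6.76 to 6.81. Of the mimic arrays, array 3 had 9.42 for MED30, where the other mimic arrays had 9.48 to 9.49. These are log2 normalized intensities. Over all tested probes control array 2 had the smallest deviation from its group mean of all arrays (root mean square 0.108). It also had the highest mean correlation with the others (0.993).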

How the results depend on the processing

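Counts are given as lowered genes, raised genes and lowered targets of miR-1, with 147, 173 and 12 in the analysis reported. They moved by over 1.5 times in at least 1 direction with median scaling (20, 76 and 6), with a replicate block (37, 68 and 8) and with a normexp offset of 16 (84, 102 and 8). The cause was not tested. With no background correction, the authors' normalized values, no filter, a filter at the 75th percentile, the mean of a gene's probes, array weights or a trended robust eBayes they were 159 to 208, 175 to 235 and 12 to 16. Without 1 array they were 75 to 119, 91 to 153 and 8 to 12, and the first 2 counts fell by over 1.5 times without mimic array 3 (79 and 101) or control array 1 (90 and 108), 3 (93 and 115) or 4 (75 and 91). Of the 147 lowered genes 61 were called in all 8 of these fits and 58 in fewer than 4, and of the 173 raised genes 78 and 67. No gene named here that was called changed its sign in any of these fits. Of 92 such genes, 41 lost their call with median scaling, 41 with the block and 28 with the offset of 16. Among those called in every fit without 1 array, CDH1, FOS, LASP1, MT1F, MT1X, RAB11FIP2, S100A8, SC5D and SERP1 lost their call with median scaling. Of the same genes CBS, FOS, MT1F, MT1X, PSAT1, SC5D and ZNF750 lost it with the replicate block, and HSPA1A with the trended robust eBayes. That setting also ended the calls of CCNA1, MTHFD2 and PHGDH, array weights those of ETV5, HMGCS1 and MTHFD2, the mean of a gene's probes those of GRHL3, RFC1 and RFC3, and no background correction that of AKR1B10.

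The replicate block rests on array numbers that mimic and control arrays share in the labels. Their deviations from the group means correlated at -0.39 to 0.04 within same-numbered pairs, and 0 of 8 arrays correlated best with its own number. The deviations of a group sum to 0 and the pairs are few, so this check cannot decide whether same-numbered arrays were handled together. The labels and methods name no pairing. A fit with the chip as a block was not run, since chips are not given in the sources used here.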
